A study of Mus musculus with 12 samples.

Results

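Mitochondrial ribosomal protein genes were compared between 6 arrays titled KO and 6 arrays titled WT, each made from quadriceps of a mouse aged 7 days. They were taken as all genes whose platform symbol is Mrpl or Mrps followed by a number, from probe sets with 1 symbol and without pseudogene names. This gave 77 genes on 85 probe sets, out of 19938 genes on the array with a probe set of their own. The brightest probe set over all 12 arrays stood for each gene. Mrpl53 shares its probe set with a neighbouring gene and was not analysed here. The arrays titled KO carry the label cofilin-2 null and those titled WT the label wildtype. All mice were C57Bl/6, and the methods describe wildtype littermates, 1 mouse per array and no pooling. Cofilin-2, encoded by Cfl2, is the form of cofilin found in muscle, where it cuts actin filaments, and neither labels nor methods limit its loss to a cell type. The labels give neither the sex of the mice nor the litters behind the array numbers.

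Cfl2 itself opposed the labels. Its log2 signal lay between 12.31 and 12.43 on the 6 arrays labelled KO and between 4.92 and 7.71 on the 6 arrays labelled WT. The labelled KO minus labelled WT difference was 6.32 ± 0.36 (SE), with an adjusted p of 1.98e-07 by limma. Whether this probe set reads the deleted stretch of Cfl2 was not looked at. Because Cfl2 ran against them, the text speaks of arrays labelled KO and arrays labelled WT, and each array stayed in its group. Every direction below is that of the labels as deposited, and for Cfl2, Ucp1, Lep and Myh3 it runs against the text of the study. The 2 labels may have been exchanged, which was not tested, and every rise given here would then be a fall in muscle without cofilin-2 and every fall a rise. Markers of skeletal muscle were bright on every array, with a mean log2 signal over 14 genes of 12.46 to 12.73 on arrays labelled KO and 12.56 to 12.80 on arrays labelled WT.

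Mitochondria carry their own ribosome, which makes the few proteins encoded by mitochondrial DNA, all of them core parts of the respiratory chain and the ATP synthase. Its ribosomal RNAs come from the mitochondrial genome, whereas every one of its proteins is encoded in the nucleus, made in the cytosol and imported. Genes named Mrps mostly encode the small subunit, which reads the messenger, and genes named Mrpl the large subunit, which joins amino acids and releases the new chain at the inner membrane. Many of these proteins descend from bacterial ribosomal proteins, and others are found only in mitochondria. Skeletal muscle depends on this machinery for oxidative metabolism, and defects in several of the genes cause human mitochondrial disease.

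Of the 77 genes, 35 rose on the arrays labelled KO relative to those labelled WT, 1 fell and 41 did not pass the test. The test was limma over all 21789 probe sets with 1 symbol, with a Benjamini-Hochberg adjusted p under 0.05. Over all these probe sets 19.5% were called higher and 12.4% lower. All 77 genes lay at or above the median signal of the probe sets tested, and among the probe sets at or above that median 31.7% were called higher and 15.2% lower. The median log2 difference of the 77 genes was 0.17, with a range of -0.14 to 0.62. It was -0.02 over all probe sets tested and 0.06 over those at or above the median signal. In whole muscle, a larger share of cells rich in a transcript and more of that transcript per cell cannot be told apart.

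**Figure D1:**
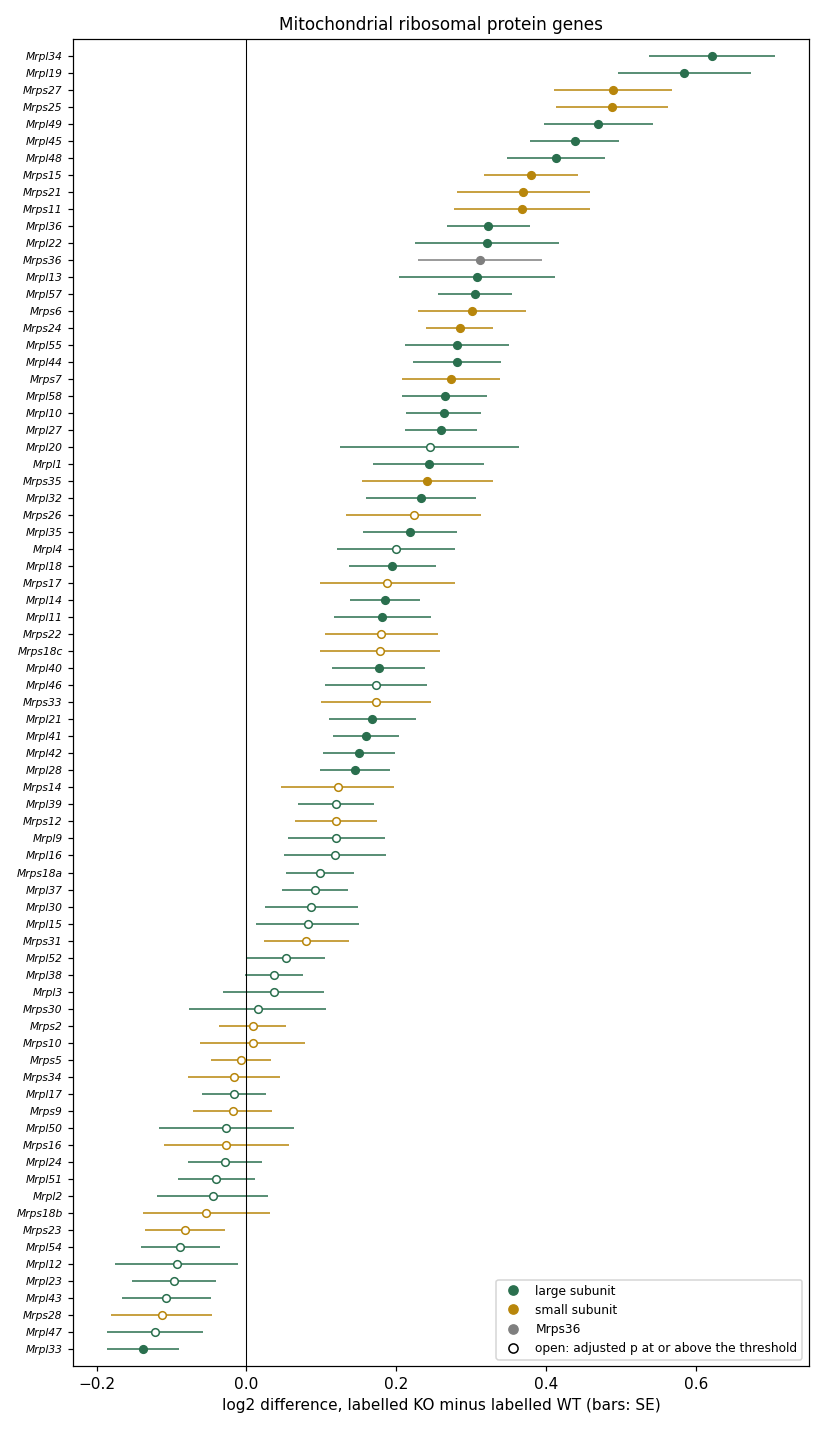
Log2 difference, labelled KO minus labelled WT, of each of the 77 mitochondrial ribosomal protein genes, with its SE as a bar. Filled points passed the adjusted p of 0.05, and colours mark the large subunit, the small subunit and Mrps36. The 59 positive differences reach 0.62, and the 18 negative ones reach -0.14.

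In the plot of all 77 differences, 59 genes lay above 0 and 18 below it. Of the 10895 probe sets at or above the median signal, 6563 lay above 0 and 4332 below it. The changes were small, and the largest was about 1.54-fold. For 18 genes all 6 arrays labelled KO lay above all 6 arrays labelled WT, a separation that 10.5% of all probe sets and 17.7% of those at or above the median signal showed. None of the 77 genes had every array labelled KO below every array labelled WT. The spread within groups was also small, with a median SD over the genes of 0.10 on the arrays labelled KO and 0.12 on the arrays labelled WT (n = 6 each).

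Mrpl34, a small large-subunit protein with a bacterial counterpart, had the largest rise. Its log2 signal was 9.85, 9.74, 9.81, 9.56, 9.84 and 9.71 on the arrays labelled KO1 to KO6, and 9.28, 9.24, 9.22, 9.18, 9.12 and 8.74 on the arrays labelled WT1 to WT6. The groups did not overlap, and WT6 stood apart at the low end. The difference was 0.62 ± 0.08 (SE, adjusted p = 0.000113).

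Mrpl19, another large-subunit protein of bacterial descent, followed at 0.59 ± 0.09 (SE, adjusted p = 0.000249). Its signal had a lowest, median and highest value of 9.34, 9.46 and 9.63 on arrays labelled KO, against 8.60, 8.89 and 9.21 on arrays labelled WT. The groups were again separate, with WT3 closest to the arrays labelled KO and WT6 farthest from them.

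The next 2 genes belong to the small subunit and have no bacterial counterpart. Mrps27, a protein built from RNA-binding pentatricopeptide repeats, had a lowest, median and highest signal of 8.28, 8.53 and 8.69 on arrays labelled KO and of 7.82, 8.0 and 8.25 on arrays labelled WT. Its difference was 0.49 ± 0.08 (SE, adjusted p = 0.000391). Mrps25 lay between 7.85 and 8.22 on arrays labelled KO, against 7.42 to 7.79 on arrays labelled WT, a difference of 0.49 ± 0.07 (SE, adjusted p = 0.000277). The 2 groups of arrays did not overlap for either gene.

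**Figure D2:**
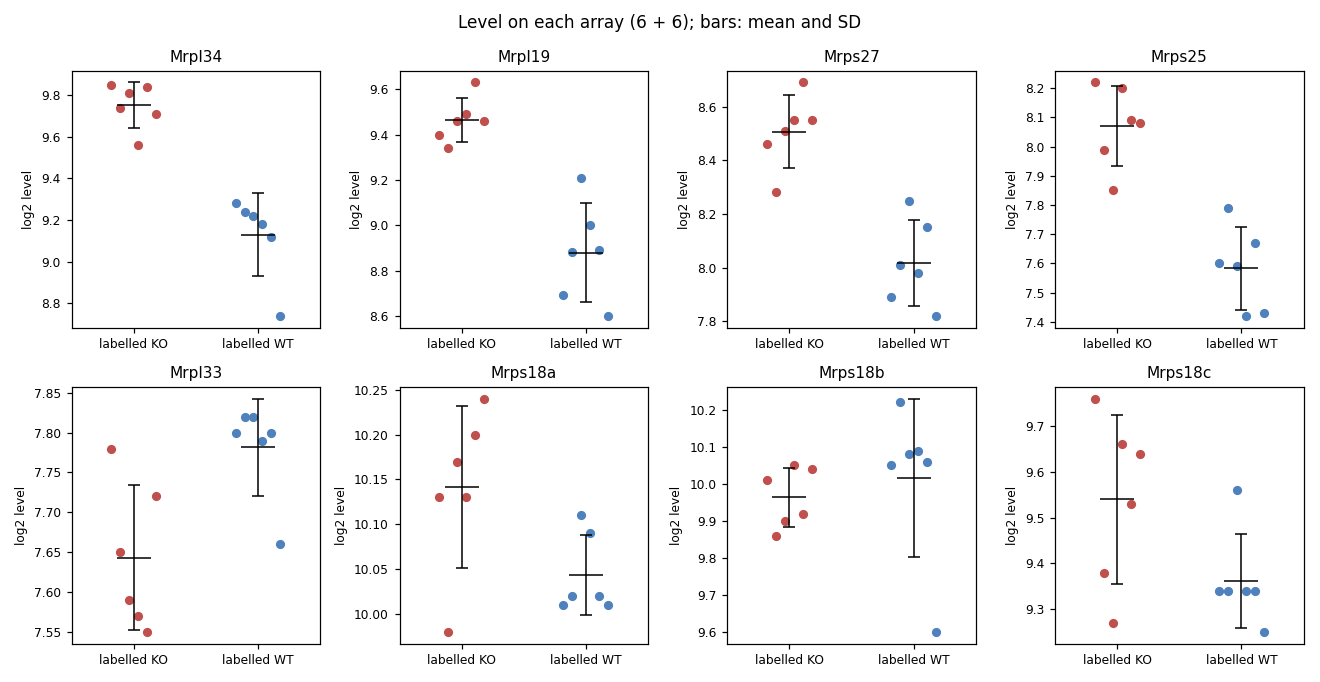
Log2 signal on each of the 12 arrays for the 4 genes with the largest rise (upper row), for Mrpl33 and for the 3 Mrps18 genes (lower row). Points are arrays, with labelled KO left of labelled WT, and bars give the mean and SD (n = 6 each). The groups are separate in the upper row and overlap in all 4 panels of the lower row.

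The array values of the 4 largest rises stand in the upper row of the plot by array. The lower row holds Mrpl33, the one gene that was lower, and the 3 Mrps18 genes.

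Promoter sequence of the genes at both ends of the range is given here, for the 3 largest rises with an entry in the promoter table and for Mrpl33. Each run covers 250 bases before to 50 bases after the start of the gene, from RefSeq on GRCm38.p6. The positions are chr8:71464676-71464975 on the plus strand for Mrpl34, chr13:99344536-99344835 on the plus strand for Mrps27, chr6:92183974-92184273 on the minus strand for Mrps25 and chr5:31613701-31614000 on the plus strand for Mrpl33. Capitals mark a match to CCGGAAG, the core bound by ETS factors such as GABP, or to GCCATCTT, a core of YY1, on either strand.
Mrpl34: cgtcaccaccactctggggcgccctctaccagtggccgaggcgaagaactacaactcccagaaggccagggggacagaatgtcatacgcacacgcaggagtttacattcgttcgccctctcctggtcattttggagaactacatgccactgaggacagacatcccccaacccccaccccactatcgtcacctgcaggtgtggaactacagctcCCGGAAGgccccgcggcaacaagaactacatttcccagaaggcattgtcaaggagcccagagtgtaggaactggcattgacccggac
Mrps27: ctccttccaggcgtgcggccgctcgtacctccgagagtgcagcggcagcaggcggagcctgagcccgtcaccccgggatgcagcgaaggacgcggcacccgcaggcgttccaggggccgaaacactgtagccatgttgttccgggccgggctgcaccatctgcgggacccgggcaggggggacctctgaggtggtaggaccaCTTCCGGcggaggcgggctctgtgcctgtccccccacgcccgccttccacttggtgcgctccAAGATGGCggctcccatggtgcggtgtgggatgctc
Mrps25: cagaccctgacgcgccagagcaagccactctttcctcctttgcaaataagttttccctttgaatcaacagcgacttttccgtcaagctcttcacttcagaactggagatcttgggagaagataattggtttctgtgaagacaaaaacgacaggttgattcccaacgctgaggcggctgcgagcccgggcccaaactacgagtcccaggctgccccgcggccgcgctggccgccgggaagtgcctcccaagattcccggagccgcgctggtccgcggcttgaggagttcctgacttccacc
Mrpl33: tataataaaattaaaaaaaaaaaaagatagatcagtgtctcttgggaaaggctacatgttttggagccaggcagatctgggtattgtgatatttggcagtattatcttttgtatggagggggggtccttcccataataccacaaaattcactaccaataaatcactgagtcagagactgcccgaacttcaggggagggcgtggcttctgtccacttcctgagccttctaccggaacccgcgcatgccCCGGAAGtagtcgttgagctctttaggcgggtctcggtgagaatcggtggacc
Mrpl34 and Mrpl33 each held 1 match to the ETS core, Mrps27 held 1 to each of the cores, and Mrps25 held none of the 5 motifs searched. The ETS core was thus found in the windows of both the largest rise and the only fall.

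Promoters were found in the table for 68 of the 77 genes. The ETS core was present in 24 of them (35.3%), against 9.12% of all 27025 promoters of the same length. GCCATCTT was present in 12 (17.6%, against 2.88% of all promoters). CGCATGCG, a core of NRF1, was present in 7 (10.3%, against 1.91%). The GC box GGGCGG stood in 34 (50%, against 35.9%) and the E-box CACGTG in 5 (7.35%, against 7.24%). Both strands were searched, and none of these motifs is part of another. GABP, YY1 and NRF1 are known regulators of nuclear genes for mitochondrial proteins, whereas a match in these windows is only a run of letters. Of the 32 promoters of genes called higher, 9 held the ETS core, 9 GCCATCTT, 3 CGCATGCG, 16 the GC box and 1 the E-box. Of the other 36 promoters, 15 held the ETS core, 3 GCCATCTT, 4 CGCATGCG, 18 the GC box and 4 the E-box.

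In the large subunit, 25 of 50 genes (50%) rose and 1 fell, with a median difference of 0.16. All 50 lay at or above the median signal, where 31.7% of probe sets rose and 15.2% fell. Proteins of the core, with bacterial counterparts and away from the landmarks named below, made up 19 of the 50. Of these 10 rose, 1 fell and 8 did not pass. Besides Mrpl34 and Mrpl19, the rises in this group were those of Mrpl36 (0.32), Mrpl13 (0.31), Mrpl27 (0.26), Mrpl32 (0.23), Mrpl35 (0.22), Mrpl14 (0.19), Mrpl21 (0.17) and Mrpl28 (0.15). Mrpl36 is among the smallest ribosomal proteins, and its arrays were separate, at 9.70 to 9.93 when labelled KO and 9.35 to 9.59 when labelled WT. Mrpl20 had a difference of 0.25 that did not pass (adjusted p = 0.134). Its arrays labelled WT ranged from 8.03 to 8.94 and reached into those labelled KO, at 8.80 to 9.02. Mrpl4, whose bacterial counterpart helps to line the exit tunnel, also missed the threshold, at 0.20 (adjusted p = 0.0672). The others of the 8 that did not pass were Mrpl9 (0.12), Mrpl16 (0.12), Mrpl30 (0.09), Mrpl15 (0.08), Mrpl3 (0.04) and Mrpl2 (-0.05).

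Mrpl33, a small protein whose bacterial counterpart contacts the ribosomal RNA, was the only gene called lower. Its signal was 7.55 to 7.78 on arrays labelled KO with a median of 7.62, against 7.66 to 7.82 with a median of 7.80 on arrays labelled WT. The groups overlapped through WT6 at 7.66. The difference was -0.14 ± 0.05 (SE), with an adjusted p of 0.0412 close to the threshold. It missed the threshold without any 1 of KO2, KO3, KO4, KO5, WT1, WT2, WT3, WT4 or WT5, at adjusted p-values of 0.0599 to 0.0924.

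The central protuberance of the large subunit faces the small subunit and holds the transfer RNAs in place. All 7 of its genes had positive differences, 5 of them rose (71.4%), and the median was 0.20. All 7 lay at or above the median signal, where 31.7% of probe sets rose and 6563 of 10895 had positive differences. Mrpl48, which is particular to mitochondria, rose by 0.41 ± 0.07 (SE, adjusted p = 0.000347). Its signal was 10.30, 10.35 and 10.58 (lowest, median and highest) on arrays labelled KO and 9.83, 9.98 and 10.20 on arrays labelled WT, with no overlap. RefSeq lists a pseudogene of Mrpl48 on chromosome 4, and which locus the probe set of Mrpl48 reads was not examined. Mrpl55 rose by 0.28 and Mrpl18, whose family binds 5S ribosomal RNA elsewhere, by 0.20. Mrpl58, also known as ICT1, can free chains from stalled ribosomes as a peptidyl-tRNA hydrolase, and it rose by 0.27. Mrpl40 rose by 0.18 with an adjusted p of 0.0426, and it lost the call without any 1 of KO1, KO4, KO5, KO6, WT4, WT5 or WT6 (adjusted p 0.0635 to 0.0909). Mrpl46 (0.17, adjusted p = 0.0654) and Mrpl38 (0.04) did not pass.

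Around the mouth of the exit tunnel, where new chains enter the inner membrane, 3 of 8 genes rose and the median difference was 0.05. That share of 37.5% is close to the 31.7% that rose among probe sets at or above the median signal. Mrpl45, which helps to anchor the ribosome to the membrane, rose by 0.44 ± 0.06 (SE, adjusted p = 0.000113). Its arrays had a lowest, median and highest signal of 9.0, 9.08 and 9.30 when labelled KO and 8.53, 8.66 and 8.85 when labelled WT, and the groups were separate. Mrpl22, whose bacterial counterpart lines the tunnel, rose by 0.32 (adjusted p = 0.0204), with arrays of 7.60 to 7.97 labelled KO overlapping those of 7.17 to 7.79 labelled WT. Mrpl44, which resembles a ribonuclease, rose by 0.28 (adjusted p = 0.00249). The other 5 did not pass, at 0.12 for Mrpl39, -0.02 for Mrpl17, -0.03 for Mrpl24, -0.10 for Mrpl23 and -0.12 for Mrpl47. Differences at the tunnel exit thus lay on both sides of 0, but none of the negative ones passed. The dimmer probe set of Mrpl47 had 0.17, which did not pass either.

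The stalks of the large subunit recruit translation factors and guide spent transfer RNA out. Of the 4 proteins in or at the base of the L12 stalk, Mrpl10 rose by 0.26 ± 0.05 (SE, adjusted p = 0.00139) and Mrpl11 by 0.18 ± 0.07 (SE, adjusted p = 0.047). Mrpl10 carries the L12 proteins and Mrpl11 forms the base of the stalk. Mrpl12, the stalk protein that meets the factors, had a difference of -0.09 ± 0.08 (SE, adjusted p = 0.411), and Mrpl54 one of -0.09 ± 0.05 (SE, adjusted p = 0.221). Mrpl10 ranged from 10.37 to 10.66 on arrays labelled KO and from 10.11 to 10.28 on arrays labelled WT. Mrpl12 ranged from 10.04 to 10.52 on arrays labelled KO and from 10.03 to 10.44 on arrays labelled WT, so that its groups overlapped almost wholly. Mrpl1 of the L1 stalk, on the side where transfer RNA leaves, rose by 0.24 (adjusted p = 0.0227).

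The remaining 11 large-subunit genes are classed as particular to mitochondria, and 4 of them rose. That share of 36.4% is also close to the 31.7% of probe sets at or above the median signal. Mrpl49 rose by 0.47 ± 0.07 (SE, adjusted p = 0.000291), with arrays of 9.75 to 9.99 labelled KO and 9.26 to 9.65 labelled WT. Mrpl57 rose by 0.31, Mrpl41 by 0.16 and Mrpl42 by 0.15. Mrpl41 lost its call under quantile normalization (0.09, adjusted p = 0.217), median centring (0.10, adjusted p = 0.093) and the mean of its probe sets (0.10, adjusted p = 0.0988). Mrps18a (0.10), Mrpl37 (0.09), Mrpl52 (0.05), Mrps30 (0.02), Mrpl50 (-0.03), Mrpl51 (-0.04) and Mrpl43 (-0.11) did not pass. Despite their names, Mrps30 and Mrps18a encode large-subunit proteins.

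In the small subunit, 9 of 26 genes (34.6%) rose and none fell, with a median difference of 0.18. All 26 lay at or above the median signal, where 31.7% of all probe sets rose, so that the share is close to the background. Of the 16 with bacterial counterparts, 6 rose. Mrps15 rose by 0.38 ± 0.06 (SE, adjusted p = 0.0005), with a lowest, median and highest signal of 10.65, 10.73 and 10.93 on arrays labelled KO against 10.24, 10.34 and 10.59 on arrays labelled WT. Its groups were separate. Mrps21 rose by 0.37 ± 0.09 (SE, adjusted p = 0.0059), and its groups met at 10.61, the lowest array labelled KO and the highest labelled WT. Mrps11, part of the platform near the messenger exit, rose by 0.37 ± 0.09 (SE, adjusted p = 0.00703), with a narrow range of 8.31 to 8.45 on arrays labelled KO and a wide one of 7.60 to 8.33 on arrays labelled WT. Mrps6, Mrps24 and Mrps7, the counterparts of bacterial S6, S3 and S7, rose by 0.30, 0.29 and 0.27, each with separate groups.

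The other 10 of this kind did not pass, Mrps18c among them. Mrps12, the counterpart of the bacterial decoding-centre protein S12, lay at 7.07 to 7.39 on arrays labelled KO and 7.00 to 7.17 on arrays labelled WT (difference 0.12, adjusted p = 0.111). Mrps17 (0.19) and Mrps14 (0.12) had positive differences, Mrps2, Mrps10, Mrps5, Mrps9 and Mrps16 lay within 0.03 of 0, and Mrps28 stood at -0.11. Among the 10 proteins particular to mitochondria, Mrps35 rose by 0.24 (adjusted p = 0.0477) besides Mrps27 and Mrps25. Mrps26 (0.22), Mrps22 (0.18), Mrps33 (0.17), Mrps31 (0.08), Mrps34 (-0.02) and Mrps23 (-0.08) did not pass, nor did Mrps18b, which is classed with them.

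The 3 Mrps18 genes are paralogues, all related to the bacterial protein S18. None of them passed the test. Mrps18a had a difference of 0.10 ± 0.05 (SE, adjusted p = 0.116), Mrps18b of -0.05 ± 0.08 (adjusted p = 0.66) and Mrps18c of 0.18 ± 0.08 (adjusted p = 0.103). Each of these calls turned on single arrays. Without KO2, the lowest of its group, Mrps18a passed at 0.13 (adjusted p = 0.0265). Mrps18c passed at 0.23 without KO3 (adjusted p = 0.0264) and at 0.22 without WT3 (adjusted p = 0.0493). Mrps18b passed as lower without WT6, at -0.14 (adjusted p = 0.0482).

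Mrps36 has since been assigned to the 2-oxoglutarate dehydrogenase complex rather than the ribosome. It rose by 0.31 ± 0.08 (SE, adjusted p = 0.0106), with separate groups of 9.03 to 9.41 labelled KO and 8.60 to 9.0 labelled WT, and its dimmer probe set gave 0.33 (adjusted p = 0.0121).

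Proteins with and without a bacterial counterpart were also counted apart. Of the 46 proteins with bacterial counterparts 22 rose (47.8%) and 1 fell, with a median of 0.18. Of the 30 particular to mitochondria 12 rose (40%), with a median of 0.16. All of them lay at or above the median signal, where 31.7% of probe sets rose. No test was made between these groups of genes.

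For 3 of the genes with 2 probe sets each, the probe sets gave different calls. Mrpl27 rose by 0.26 on its brighter probe set, and the dimmer one had 0.14 (adjusted p = 0.0787). Mrpl41 rose by 0.16 on the brighter and had 0.04 on the dimmer (adjusted p = 0.582). Mrpl51 had -0.04 on the brighter probe set (adjusted p = 0.578), whereas the dimmer one rose by 0.34 ± 0.07 (SE, adjusted p = 0.00351). The 2 probe sets of Mrpl47 had -0.12 and 0.17 and neither passed. Which locus each probe set reads was not examined. The RefSeq table lists 6 pseudogenes, of Mrpl23, Mrpl27, Mrpl48 and Mrps36, and whether their signal is shared with these 4 genes was not tested.

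**Figure D3:**
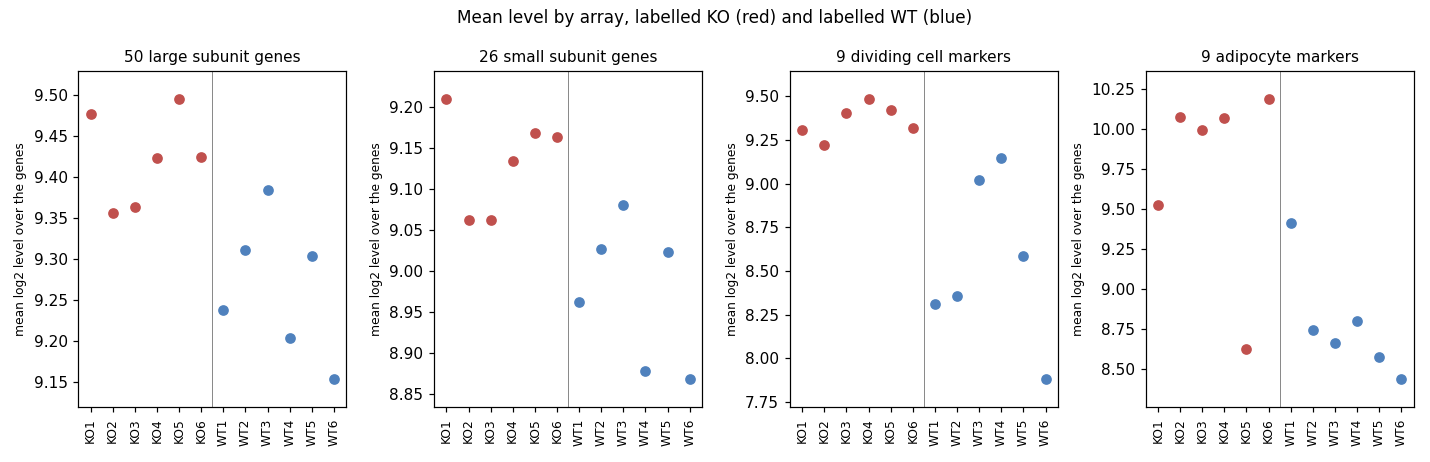
Mean log2 signal on each array over the large-subunit genes, the small-subunit genes, 9 markers of dividing cells and 9 markers of adipocytes, with arrays labelled KO left of arrays labelled WT. Each panel has its own vertical scale. Both subunits show WT3 as the highest and WT6 as the lowest array labelled WT, and the dividing cell markers separate the groups.

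By array, the mean log2 signal over the 77 genes was 9.39, 9.25, 9.26, 9.32, 9.38 and 9.33 on the arrays labelled KO1 to KO6. It was 9.14, 9.21, 9.28, 9.09, 9.20 and 9.05 on the arrays labelled WT1 to WT6. The means of the groups were 9.32 ± 0.06 and 9.16 ± 0.08 (labelled KO and labelled WT, SD, n = 6 each), and the ranges overlapped, since WT3 exceeded KO2 and KO3. Within a group, the same arrays were high or low for many of the genes. KO1 had the highest value of its group for 35 of the 77 genes and KO2 the lowest for 36, while WT3 was the highest of its group for 39 and WT6 the lowest for 36. The panels of mean signal by array show KO1 and KO5 highest and KO2 and KO3 lowest of their group in both subunits, and WT3 highest and WT6 lowest of theirs.

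Markers of other cells also differed between the groups. Of 9 measured genes of dividing cells 8 were higher, with a mean signal of 9.22 to 9.49 on arrays labelled KO and 7.88 to 9.15 on arrays labelled WT. Those ranges did not overlap, so that the part of dividing cells and that of the label cannot be told apart. With this mean as a covariate 5 of the 77 genes passed as higher, the median difference was 0.09, and 8.78% of the probe sets at or above the median signal passed as higher. Mrpl34, Mrps25 and Mrpl45 kept the call in that fit. Among the arrays labelled WT, WT6 was lowest both in dividing cell signal (7.88) and in the mean of the 77 genes (9.05). WT3 was second in dividing cell signal (9.02) and highest in that mean (9.28), and WT4 was highest in dividing cell signal (9.15) with a mean of 9.09. Among the arrays labelled KO, KO2 was lowest in both (9.22 and 9.25). KO1 was next lowest in dividing cell signal (9.31) and highest in the mean of the 77 genes (9.39). KO4 was highest in dividing cell signal (9.49), with a mean of 9.32.

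Of 9 measured adipocyte genes 6 were higher, at 8.62 to 10.19 on arrays labelled KO against 8.43 to 9.41 on arrays labelled WT. With their mean as a covariate 21 of the 77 genes passed as higher, against 15.7% of the probe sets at or above the median signal, and the median was 0.20. KO5 had the lowest adipocyte signal of its group (8.62) and a mean over the 77 genes of 9.38. KO1 had the next lowest (9.52) and a mean over the 77 genes of 9.39. On KO2, KO3, KO4 and KO6, where adipocyte signal was 9.99 to 10.19, that mean was 9.25 to 9.33. Among 8 brown adipocyte genes 1 was higher, Ucp1 (2.75, adjusted p = 0.00321), none was lower and 2 lay at or above the median signal. Their mean was 6.18 to 7.11 on arrays labelled KO, with KO1 highest and KO5 lowest, against 6.19 to 6.36 on arrays labelled WT. Of 7 macrophage genes 5 were higher, and of 6 endothelial genes 4. The 6 fibroblast genes held 5 higher and 1 lower, Pdgfra at -0.29 (adjusted p = 0.0249). The 14 skeletal muscle genes held 7 lower and 1 higher. Among all probe sets at or above the median signal, 31.7% were higher and 15.2% lower. WT4 alone carried neutrophil genes, with a mean of 8.51 over 7 genes against 5.24 to 5.62 on arrays labelled KO and 5.41 to 5.74 on the other arrays labelled WT. The part of these cells in the differences of the ribosomal genes was not tested. Leaving out KO5, WT4 or WT6 left 26, 29 and 29 of the 77 genes higher. Of the probe sets at or above the median signal, 29.05%, 31.5% and 30.0% were higher in those fits.

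**Figure D4:**
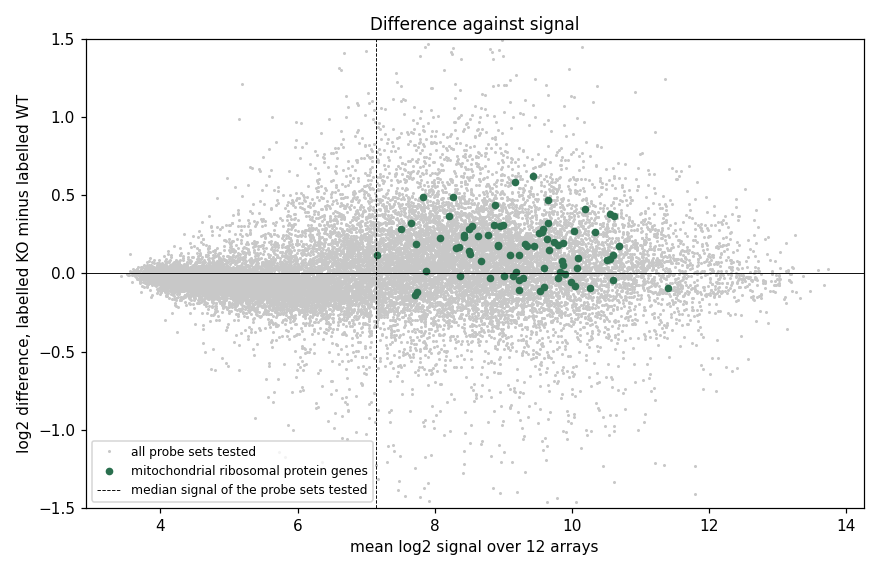
Mean log2 signal over the 12 arrays (horizontal axis) and log2 difference, labelled KO minus labelled WT (vertical axis), for all probe sets tested (grey) and the 77 mitochondrial ribosomal protein genes (green). The dashed line is the median signal, and 39 probe sets lie outside the vertical range. All 77 genes lie at or right of the line, most of them above 0.

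The plot of difference against signal sets the 77 genes among all probe sets tested, and all of them lie in its brighter part. Scaling of the arrays moved the counts. The median over the tested probe sets was higher by 0.06 on the arrays labelled KO, whereas the median over all 35556 rows was lower by 0.05. Centring each array on the first gave 25 of the 77 genes higher and 6 lower, with a median of 0.11, and 25% of the probe sets at or above the median signal were then higher. Centring on the second, chosen after the data had been seen, gave 44 higher and 0 lower with a median of 0.22, and 39.6% of those probe sets were higher. Of all calls, 61.1% were higher as deposited, 36.2% under the first centring and 77.8% under the second. Beside these, 2 of 59 genes for cytosolic ribosomal proteins were higher as deposited (3.39%) and 14 lower, with a median of -0.05. Of the 59, 56 lay at or above the median signal, where 31.7% of probe sets were higher and 15.2% lower.

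**Figure D5:**
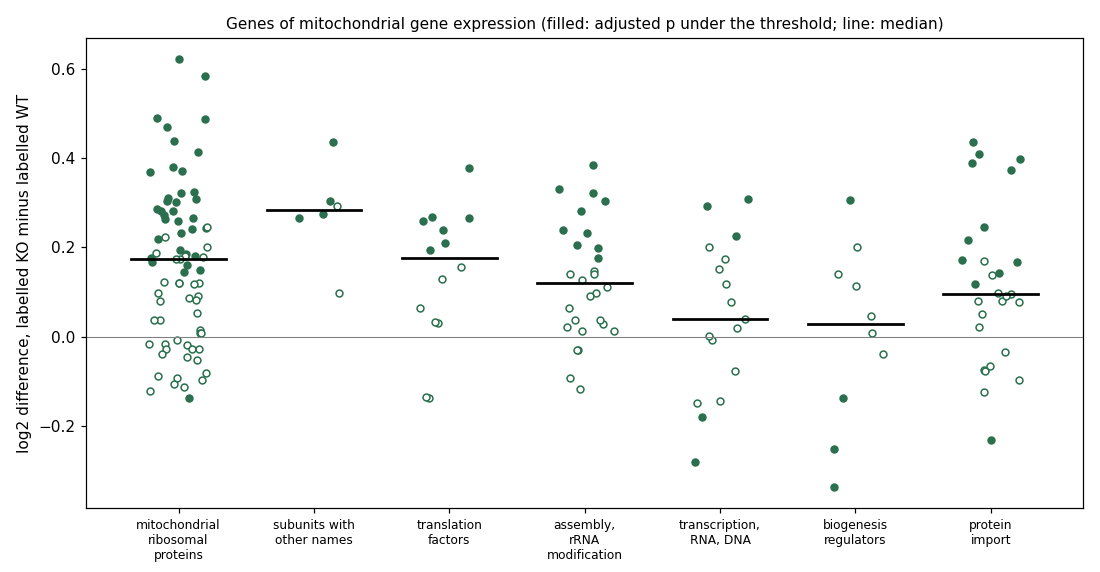
Log2 difference, labelled KO minus labelled WT, for the 77 genes and for 6 lists of genes that serve mitochondrial gene expression or import. Filled points passed the adjusted p of 0.05 and lines are medians. The medians lie at 0.17 for the 77 genes and between 0.03 and 0.28 for the lists.

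Further proteins of this ribosome carry other names. Of 6 measured, 4 rose and the median was 0.28, but Mrpl57 and Mrpl58 are also counted among the 77. All 6 lay at or above the median signal, where 31.7% of probe sets rose. Ptcd3, a pentatricopeptide protein of the small subunit, rose by 0.44 ± 0.05 (SE, adjusted p = 5.86e-05), with a mean signal of 9.41 on arrays labelled KO and 8.97 on arrays labelled WT. Gadd45gip1, a protein of the large subunit, rose by 0.28. Chchd1 (0.29, adjusted p = 0.0934) and Dap3 (0.10), both of the small subunit, did not pass.

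Factors that run translation on this ribosome rose in 7 of 14 cases (50%) and fell in none, with a median of 0.18. At or above the median signal, where 13 of the 14 lay, 31.7% of probe sets rose and 15.2% fell. The initiation factors Mtif3 and Mtif2 rose by 0.38 ± 0.07 (SE, adjusted p = 0.000907) and 0.27 ± 0.06 (SE, adjusted p = 0.00472). Tufm, which brings aminoacyl-tRNA to the ribosome, rose by 0.26, and Tsfm, which recharges it, by 0.27. Gfm1 (-0.14, adjusted p = 0.0672) and Gfm2 (0.13, adjusted p = 0.0766) did not pass.

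Among genes for ribosome assembly and ribosomal RNA modification 10 of 28 (35.7%) rose and none fell, with a median of 0.12. That share stands against 19.5% of all probe sets and 31.7% of those at or above the median signal, to which 21 of the 28 belong. Tfb1m, which dimethylates the small ribosomal RNA, rose by 0.39 ± 0.07 (SE, adjusted p = 0.00103), and Mettl15, another methyltransferase for that RNA, by 0.31 ± 0.05 (SE, adjusted p = 0.000657). Rpusd3, of the pseudouridine synthase family, rose by 0.33, and the GTPase Noa1 by 0.32. Nsun4, which modifies the same RNA and helps to join the subunits, had a difference of -0.03 (adjusted p = 0.778).

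Genes of mitochondrial transcription, RNA processing and DNA maintenance held 3 of 17 higher (17.6%) and 2 lower, with a median of 0.04. Over all probe sets 19.5% were higher and 12.4% lower. At or above the median signal, where 15 of the 17 lay, the shares were 31.7% and 15.2%. Pnpt1, an RNA-degrading phosphorylase, and Tefm, the elongation factor of the mitochondrial polymerase, rose by 0.31 and 0.29. Twnk, the helicase that opens mitochondrial DNA for replication, fell by 0.28 ± 0.07 (SE, adjusted p = 0.00539), and the transcription factor Tfb2m fell by 0.18 ± 0.05 (SE, adjusted p = 0.0178). Polrmt, the polymerase that transcribes the mitochondrial ribosomal RNAs, had a difference of -0.01 (adjusted p = 0.921).

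Of 10 regulators of mitochondrial biogenesis 1 rose and 3 fell. All 10 lay at or above the median signal, where 31.7% of probe sets rose and 15.2% fell. Myc rose by 0.31 (adjusted p = 0.0302). The coactivator Ppargc1b fell by 0.34 (adjusted p = 0.024), the nuclear receptor Esrra by 0.25 (adjusted p = 0.015) and Gabpa, the DNA-binding subunit of GABP, by 0.14 (adjusted p = 0.0145). Nrf1 (0.01) and Yy1 (-0.04) did not pass. Gabpb1 (0.05) and Gabpb2 (0.20), for the partner subunits of Gabpa, did not pass either.

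In the import machinery, which brings the ribosomal proteins into the organelle, 11 of 28 genes (39.3%) rose and 1 fell, with a median of 0.10. All 28 lay at or above the median signal, where 31.7% of probe sets rose. Timm21, a subunit of the inner membrane translocase, rose by 0.44 ± 0.05 (SE, adjusted p = 3.06e-05). Tomm5 and Tomm22 of the outer membrane complex rose by 0.41 and 0.39, and Timm22, the carrier translocase, by 0.40. Hspa9, the chaperone that pulls proteins into the matrix, fell by 0.23 ± 0.05 (SE, adjusted p = 0.00186). These list medians stand beside -0.02 for all probe sets and 0.06 for those at or above the median signal.

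Several of the 77 genes share a promoter region with a gene on the other strand. Within 1000 bases, 26 of the 68 genes with a promoter entry had such a neighbour. For 2 of them, Mrps11 and Mrpl46, the neighbour was the other of the 2. Of the 24 pairs with a gene outside the 77, 22 were measured, and these 22 neighbours had a median difference of 0.01, with 6 higher and 4 lower. In 11 such pairs the ribosomal gene rose, and its neighbour rose in 2, fell in 1 and did not pass in 8. As a background to both counts, 19.5% of the 21789 probe sets rose and 12.4% fell. For the brighter ones, at or above the median signal, it was 31.7% and 15.2%. Whether genes that share a promoter region change together more often than other genes was not tested. Mrpl57 (0.31) and Ska3 (0.61), a kinetochore gene, rose from starts 76 bases apart, as did Mrpl27 and Eme1 (0.20), a DNA repair nuclease gene, at 48 bases. These pairs use the brighter probe set, and the dimmer one of Mrpl27 did not pass (0.14, adjusted p = 0.0787). Mrpl51 did not pass on its brighter probe set but rose by 0.34 on the dimmer one. Its neighbour Ncapd2 rose by 0.445. Mrpl18 rose while Tcp1, which encodes a chaperonin subunit, fell by 0.20 at 238 bases. Mrpl49 (0.47) faced Fau (-0.04, adjusted p = 0.596), a cytosolic ribosomal protein gene, at 192 bases. Mrps11 and Mrpl46 face each other at 42 bases, and the first rose by 0.37 while the second had 0.17 (adjusted p = 0.0654).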

How the data were processed

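Total RNA of quadriceps muscle was hybridized to Affymetrix Mouse Gene ST arrays. The deposited table holds log2 levels that the authors made at gene level with Affymetrix Power Tools. For that software the version and the summary algorithm were not given in the sources used here, nor was the genome build. The table names no scale, and log2 was inferred from its range. Of 35556 rows, 21789 had 1 symbol in the platform annotation and were tested, 1621 had several and 12146 were unnamed. A RefSeq table of GRCm38.p6 matched 21698 of the tested probe sets and gave the same 77 genes. No detection calls were used, and the number of arrays (6 per group) limits the precision.

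Groups came from the array titles. Differences are labelled KO minus labelled WT, fitted by limma 3.58.1 (lmFit and eBayes, R 4.3.3) with the label as the only term. Benjamini-Hochberg adjustment ran over all 21789 probe sets, with a threshold of 0.05. The methods' t-test was an alternative, as were a replicate block, other scalings, filters, variance settings, array weights, marker covariates, the mean of all probe sets of a gene and leaving out each array. Centring over all rows was added after the data had been seen. The fit was tested on simulated data. Separate groups means that all arrays of a group exceed all of the other. Genes named in full are the 10 largest rises, all falls, the Mrps18 genes, Mrps36, genes with discordant probe sets and 4 each of the brightest and dimmest. The other members are named with their differences, and up to 4 passing genes are named per list. Members and lists were chosen with earlier results of these data known, and the cytosolic ribosomal list, Gfm1, Gfm2, Nsun4, Polrmt, Nrf1, Yy1, Gabpb1, Gabpb2 and the neighbours named were chosen after their values were seen. Members were assigned to places in the ribosome from textbook knowledge.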

Additional observations from a re-analysis of the deposited data

Results flagged for a closer look

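Among 54 groups of 6 arrays, for 24 named genes and the 3 mean levels by array, 4 held 1 array far from the other 5, and chance flags about 1 in 20 groups. Mrpl34 was at 8.74 on the array labelled WT6, with the nearest array of its group at 9.12. Mrpl33 was at 7.66 on WT6, with the nearest at 7.79. Mrps18b was at 9.60 on WT6, with the nearest at 10.05. Mrps18c was at 9.56 on WT3, with the nearest at 9.34.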

How the results depend on the processing

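The median difference stayed above 0 under every setting run, with 0.17 in the test reported, 0.11 under median centring and 0.22 under centring over all rows. The count of genes higher ranged from 5 to 44 of 77. It moved by more than 1.5 times only with the adipocyte level (21) or the dividing cell level (5, median difference 0.0944) as a covariate. The count of genes lower, 1 in the main test, was 0 under a replicate block, all rows of the table, trended and robust variance, both covariates and centring over all rows. It was 3 under quantile normalization and array weights and 6 under median centring. Over the fits that left out 1 array each, genes higher ranged from 26 to 38, genes lower from 0 to 4 and the median from 0.14 to 0.19. In those fits 28.0% to 32.5% of the probe sets at or above the median signal were higher. Every gene called higher under quantile normalization (26), median centring (25) or the replicate block (27) was among the 35. Deviations of arrays sharing a number correlated at -0.22 to 0.17, and 2 of 6 arrays labelled KO correlated best with their own number. Correlations this weak cannot show whether arrays with the same number come from littermates. With the replicate block Mrpl33 (adjusted p = 0.094), Mrpl40 (0.0815) and Mrpl22 (0.0644) lost their calls. Mrpl41 lost its call under quantile normalization (0.217), median centring (0.093) and the mean of its probe sets (0.0988), and Mrpl40 under median centring (0.117), all rows (0.0585) and the methods' test (0.0629). Mrpl33 lost its call under all rows (0.0531), trended and robust variance (0.0722) and centring over all rows (0.245). With the covariates, 4 (adipocyte) and 14 (dividing cells) of the 24 named genes lost theirs. Mrpl23, Mrpl39, Mrpl51, Mrps12 and the Mrps18 genes had no call to lose. With dividing cells, only Mrpl34, Mrps25 and Mrpl45 among the named genes thus kept a call. Under median centring Mrpl23 passed as lower (-0.16, adjusted p = 0.0346). No named gene that was called changed sign, and the cause of the other changes was not tested.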
